A study of Mus musculus with 12 samples.

Results

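Hearts of wild-type mice given cisplatin (CDDP), a platinum drug that binds and crosslinks DNA, were compared with hearts of wild-type mice without the drug. The 6 hearts, of 12 in the series, were picked by their labelled genotype and treatment, with 3 in the Saline group and 3 in the CDDP group. The mice were male and 8 weeks old, of strain C57BL/6 by the labels and C57BL/6J by the methods, and no allele was altered in either group. The CDDP mice received 6 mg/kg of cisplatin by intraperitoneal injection on days 1, 8 and 15, and their hearts were taken a week after the last dose. In the labels the control hearts are untreated, whereas the methods describe saline injections. The remaining 6 hearts, from STING-/- mice with and without cisplatin, entered only the estimate of the spread between hearts. The study as a whole asked how cisplatin injures the heart, and the comparison of these groups asks which cardiac programmes differ after 3 doses.

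Cardiac tissue holds cardiomyocytes, which supply most of the RNA, together with fibroblasts, endothelium, pericytes, macrophages and blood. Cardiomyocytes contract through the sarcomere, release calcium from the sarcoplasmic reticulum at each beat and burn mainly fatty acids in densely packed mitochondria. Cisplatin lesions block transcription and replication, are removed largely by nucleotide excision repair and can activate p53. Outside the heart the drug is known to suppress the bone marrow, to injure the kidney and to reduce appetite. In RNA of undivided tissue, fewer cells of a type and less RNA per cell cannot be told apart.

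The deposited values were TPM, which give a gene's share of all transcripts after correction for length and sum to the same total in every heart, for 55885 genes. TPM keeps no read counts, so the depth behind a value is unknown. A gene was kept where 3 or more of the 12 hearts had a TPM of 1 or higher, which left 13815 genes, and these were tested with limma on log2(TPM + 1), and those with a Benjamini-Hochberg adjusted p under 0.05 are described as called. A fold change on this scale understates the change of genes with low TPM. Ventricular markers were abundant in every heart, with a TPM of Myl2, the ventricular light chain of myosin, between 5612 and 14303. Atrial RNA varied widely between hearts: the atrial light chain Myl7 was at 5.68, 6537 and 2.48 in Saline 1, 2 and 3 and at 486, 86.3 and 1778 in CDDP 1, 2 and 3. Every CDDP heart lay above Saline 1 and 3 and below Saline 2. The methods name cardiac tissues without the part taken, so how much atrium each sample held is unknown. Of 10 atrial genes 0 were called, but 5 were called higher without Saline 2 and 4 without Saline 2 and CDDP 3, and the part of atrial RNA in the results below was not tested. Saline 2 and CDDP 3 stood apart from the other hearts of their groups, so several counts below are also given without both. The first principal component of the 6 hearts (46.3% of the variance) separated the groups, and the second (26.6%) set Saline 2 and CDDP 3 apart.

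CDDP changed the level of 2610 genes, 18.9% of those tested. Of these, 1177 were higher (8.52% of the tested genes) and 1433 lower (10.4%) with CDDP. Counts of called genes in each list below are to be read beside these shares. The 3 hearts of a group lay wholly above or below those of the other for 32.0% of all tested genes, of which 14.9% of the tested genes were higher and 17.1% lower with CDDP. The called genes that were higher held 8.08%, 9.60% and 8.00% of all TPM in the Saline group and 15.1%, 14.3% and 15.6% in the CDDP group. Those that were lower held 12.1%, 9.79% and 11.1% in the Saline group and 5.21%, 6.41% and 5.76% in the CDDP group. Extreme values were spread unevenly over the CDDP hearts. Among the called genes that were lower, 982 of 1433 had their lowest value in CDDP 1, while 649 of the 1177 higher genes peaked in CDDP 3. The median-of-ratios scaling factor, the level of a typical gene in a heart, was 0.895, 0.976 and 1.200 in CDDP 1, 2 and 3. Its part in these counts was not tested. The number called depended on the hearts used. It was 822 when the 6 hearts alone were fitted, 1241 without Saline 1 and 1961 without Saline 2 and CDDP 3.

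**Figure D1:**
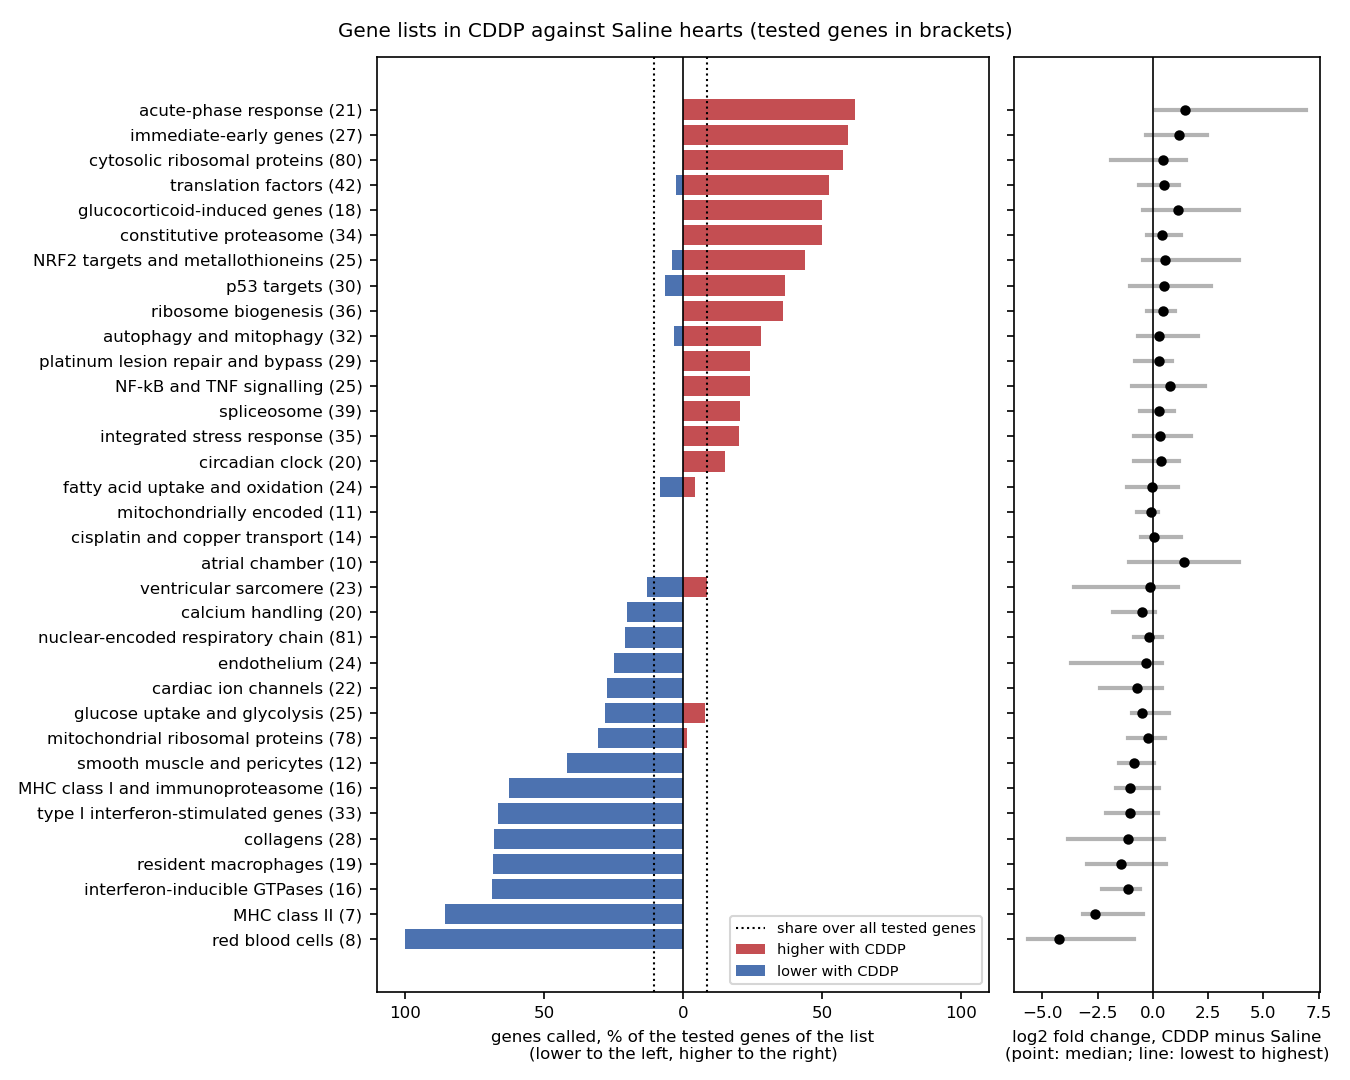
The left panel plots, for each gene list, the share of its tested genes called higher (red, to the right) or lower (blue, to the left) with CDDP; dotted lines mark the shares over all tested genes, 8.52% and 10.4%. The right panel plots the median log2 fold change of the list (point) and its lowest and highest gene (line). Lists of the acute-phase response, translation and the proteasome lie far to the right, and those of interferon, antigen presentation, collagens and blood to the left.

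Of 23 tested sarcomere genes 2 rose and 3 fell, and these shares of 8.70% and 13% were near the 8.52% and 10.4% of all tested genes. Without CDDP 1, 5 were called higher, and without Saline 2, 5 were called lower. Over the list, the median log2 fold change was -0.12, against 0.00 over all tested genes. The largest fall was that of Actc1, the cardiac α-actin of the thin filament. Actc1 stood at a TPM of 7824, 5559 and 5036 in Saline 1, 2 and 3 and 187, 681 and 1067 in CDDP 1, 2 and 3, so that the hearts did not overlap (log2 fold change -3.55 ± 0.53, limma adjusted p = 0.00181, n = 3 hearts per group; here and below ± gives the standard error of the fit). The sarcomeric protein gene Synpo2l fell from 33.4, 66.2 and 26.9 to 9.08, 11 and 16.9 (log2 fold change -1.63 ± 0.32, limma adjusted p = 0.00664), while Des, which encodes the intermediate filament desmin, rose from 501, 566 and 476 to 1082, 1241 and 1096 (log2 fold change 1.15 ± 0.12, limma adjusted p = 6.01e-04). Tnnt2, the cardiac troponin T, rose by 0.56 and Tpm1, tropomyosin, fell by 0.54 on the log2 scale, but both calls were lost without Saline 1 (adjusted p = 0.0543 and 0.137 by limma), and that of Tpm1 also without Saline 3, CDDP 1 or CDDP 3. Myh6, the main adult myosin heavy chain, had a TPM of 6010, 6157 and 4293 in the Saline and 3006, 6257 and 6308 in the CDDP hearts, low in CDDP 1 and overlapping otherwise (log2 fold change -0.14 ± 0.30, limma adjusted p = 0.783). Myh7, the slow form that rises in failing mouse hearts, also overlapped, at 550.1, 1742 and 1190 and 769.5, 1859 and 1988 (log2 fold change 0.44 ± 0.59, limma adjusted p = 0.643).

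Among genes that mark load and the fetal programme 1 of 16 was called higher and 2 lower, shares of 6.25% and 12.5% that were also near those of all tested genes. Without Saline 2, 3 were called higher. Fhl2, a LIM-domain scaffold of the sarcomere, was at 1332, 749 and 1337 in the Saline group and at 182, 393 and 309 in the CDDP group (log2 fold change -1.97 ± 0.28, limma adjusted p = 0.00153). Xirp2, an actin-binding protein of the intercalated disc, fell by 0.96 and Uchl1, a deubiquitinase, rose by 1.50 on the log2 scale. The natriuretic peptide genes were uncalled. Nppb was lower in every CDDP heart, at 363, 39.6 and 82.1 against 456, 1175 and 513, and narrowly missed the threshold (log2 fold change -2.60 ± 0.84, limma adjusted p = 0.0514). Nppa, which atrial muscle makes in quantity, ran from 299.6 to 25687 and was highest in Saline 2 and CDDP 3, the hearts with the most Myl7. Its log2 fold change of 0.93 was smaller than its standard error of 1.68.

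Some genes of calcium handling and excitability fell. Of 20 tested calcium-handling genes 4 fell and 0 rose (median log2 fold change -0.51), and of 22 ion channel genes 6 fell and 0 rose (median -0.72). These shares of 20.0% and 27.3% lower stand beside 10.4% of all tested genes. Casq2, the calcium-binding protein of the sarcoplasmic reticulum, was at 456, 389 and 385 in the Saline group and at 90.4, 104 and 162 in the CDDP group (log2 fold change -1.82 ± 0.21, limma adjusted p = 7.15e-04). Asph, whose locus encodes the Casq2 partner junctin, fell from 79.6, 68.6 and 62.2 to 20.8, 25.9 and 38.9 (log2 fold change -1.31 ± 0.22, limma adjusted p = 0.00277). The calcium pump Atp2a2, by contrast, overlapped between groups (2854, 3484 and 2360 and 2606, 2697 and 4082), as did its inhibitor Pln. Ryr2, the release channel, was lower in each CDDP heart, most so in CDDP 1 (104, 158 and 114 against 42.3, 103 and 99.3), without passing (log2 fold change -0.70 ± 0.34, limma adjusted p = 0.168).

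Among channels, Kcne1, the β-subunit of the slow delayed rectifier, fell from 13.8, 7.11 and 8.01 to 0.650, 1.30 and 0.980 (log2 fold change -2.39 ± 0.44, limma adjusted p = 0.00463). Gja1, the connexin of ventricular gap junctions, fell from 180.3, 117 and 107 to 74.6, 58.1 and 69.6 (log2 fold change -0.96 ± 0.19, limma adjusted p = 0.00740). With Saline 1 or Saline 3 left out, 3 rather than 6 channel genes were called. The β1-adrenergic receptor Adrb1, through which noradrenaline drives the heart, was at 5.72, 5.47 and 4.86 in the Saline and 0.380, 1.17 and 1.28 in the CDDP hearts (log2 fold change -1.74 ± 0.20, limma adjusted p = 7.15e-04). The α1-receptor Adra1b fell as well, by 1.41, and Prkaca, the catalytic subunit of protein kinase A, by 0.72 on the log2 scale. These 3 were the only called genes of 22 in adrenergic and cAMP signalling, and 0 rose. The share lower, 13.6%, was near the 10.4% of all tested genes.

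**Figure D2:**
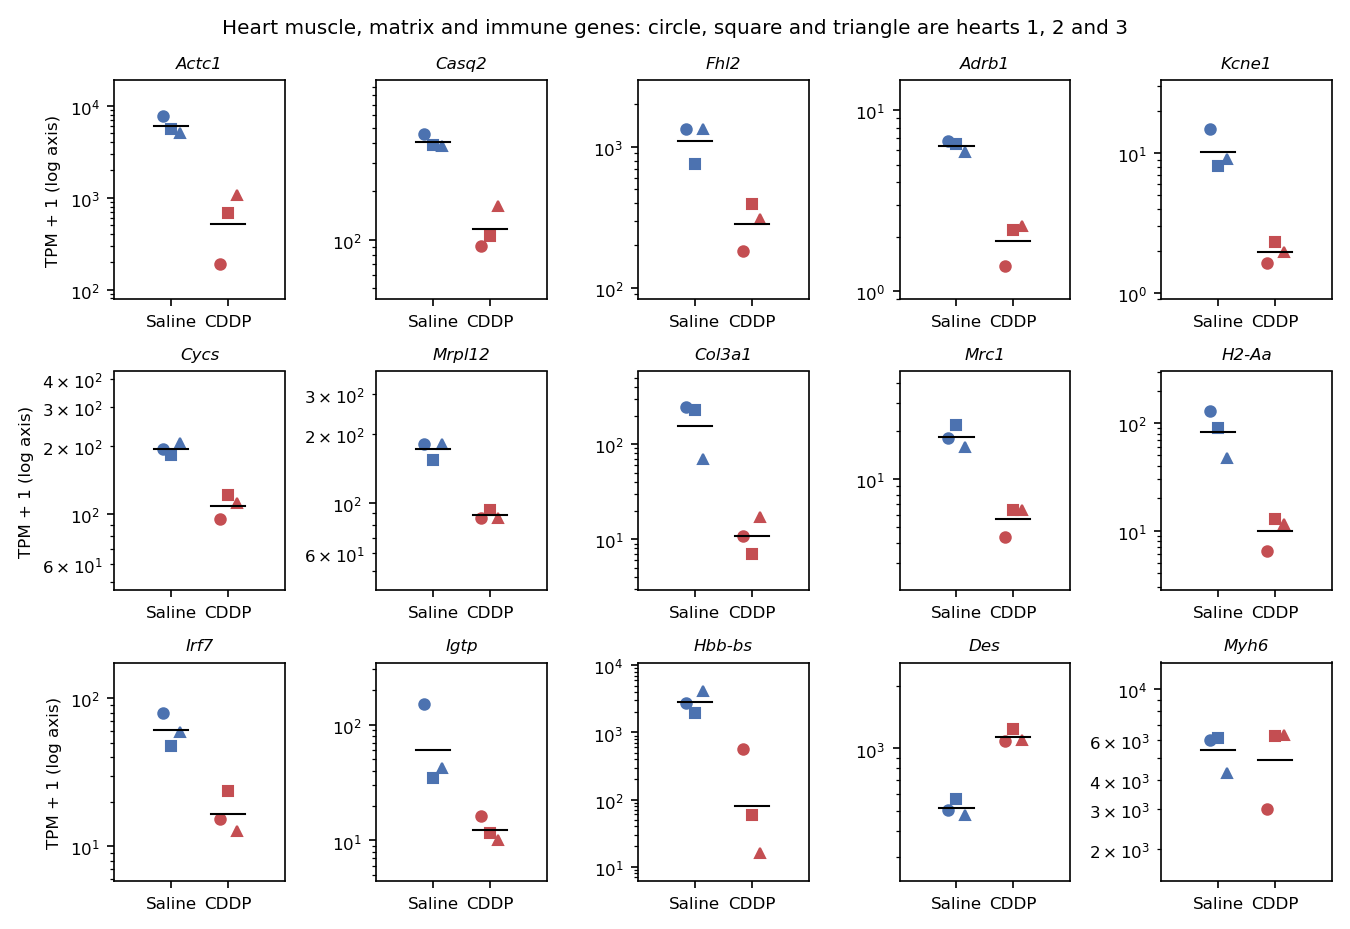
Each panel plots TPM + 1 on a log axis for 1 gene in the 3 Saline (blue) and 3 CDDP (red) hearts; circle, square and triangle are hearts 1, 2 and 3, and the bar is the mean of log2(TPM + 1). Des is higher with CDDP and Myh6 overlaps, while the other 13 genes are lower in every CDDP heart than in any Saline heart.

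Energy metabolism changed in selected steps. Transcripts encoded by the mitochondrial genome took 19.1% to 24.3% of TPM in the Saline group and 18.2% to 22.8% in the CDDP group, and 0 of 11 tested were called, with median log2 fold change -0.08. The list holds 13 genes, of which mt-Atp6 and mt-Nd6 were listed at 0 in all 6 hearts. Nuclear genes for mitochondria were lower more often than higher. Of 78 mitochondrial ribosomal proteins 24 fell and 1 rose, with a median of -0.24. The shares of 30.8% lower and 1.28% higher stand beside 10.4% and 8.52% of all tested genes. Mrpl12, a subunit of the large mitochondrial ribosome, was at 181, 153 and 180.0 in the Saline and 84.7, 91.9 and 85.2 in the CDDP hearts (log2 fold change -0.96 ± 0.12, limma adjusted p = 8.02e-04), and Mrpl34 fell from 165, 135 and 161 to 55.0, 79.5 and 75.0 (log2 fold change -1.14 ± 0.17, limma adjusted p = 0.00194). With Saline 1 left out 14 rather than 24 were called, and 16 without Saline 2 and CDDP 3.

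Of 81 nuclear-encoded respiratory chain subunits 17 fell and 0 rose, by small steps (median log2 fold change -0.18, lowest -0.84). Cycs, cytochrome c, fell from 193, 183 and 206 to 94.4, 121 and 111 (log2 fold change -0.84 ± 0.12, limma adjusted p = 0.00139), and Uqcrfs1, the Rieske iron-sulfur subunit of complex III, from 747, 670.4 and 735 to 396, 477 and 484 (log2 fold change -0.67 ± 0.14, limma adjusted p = 0.00831). This count was 4 after scaling by the median of ratios or without Saline 1, 10 without Saline 2 and CDDP 3, and 35 after quantile normalization. Sdha and Cox4i1 overlapped between groups.

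In glucose use, 7 of 25 genes fell and 2 rose (median -0.47). The share lower was 28.0%, beside 10.4% of all tested genes, and the share higher, 8.00%, was near their 8.52%. Pgam2, the muscle phosphoglycerate mutase, was at 733, 746 and 582 in the Saline group and 249, 398 and 444 in the CDDP group (log2 fold change -0.95 ± 0.20, limma adjusted p = 0.00921). Pdhb, a subunit of pyruvate dehydrogenase, fell from 574, 501 and 593 to 210.4, 359 and 333 (log2 fold change -0.92 ± 0.18, limma adjusted p = 0.00687), and Eno3, the muscle enolase, by 0.83 on the log2 scale. The insulin-dependent transporter Slc2a4 was at 40.9, 156 and 148 in CDDP 1, 2 and 3 against 141, 149 and 143, low in CDDP 1 alone. Without Saline 1 or without Saline 3, 4 falls were called. The rises, those of Slc2a1 and Aldoa, were both lost without Saline 1, Saline 3 or CDDP 3. The mitochondrial creatine kinase Ckmt2 fell from 1730, 1348 and 1901 to 659, 1151 and 832 (log2 fold change -0.94 ± 0.19, limma adjusted p = 0.00771).

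Of 24 genes of fatty acid uptake and oxidation 1 rose and 2 fell, with a median of -0.06, and 5 were called lower without CDDP 2. The shares of 4.17% higher and 8.33% lower were below the 8.52% and 10.4% of all tested genes. Lpl, which frees fatty acids from lipoproteins at the vessel wall, rose from 768, 693 and 862 to 1362, 1962 and 1884 (log2 fold change 1.15 ± 0.15, limma adjusted p = 0.00106). The capillary fatty acid carrier Fabp4 fell from 1397, 898 and 1838 to 625, 684 and 457 (log2 fold change -1.18 ± 0.26, limma adjusted p = 0.0104). The call of Fabp3, the muscle carrier and the other that fell, was lost without any heart other than CDDP 2 (adjusted p up to 0.131 by limma). The fasting genes Pdk4 and Angptl4 overlapped between groups. Plin4, a coat protein of lipid droplets, rose from 26.6, 57.5 and 45.1 to 86.6, 194 and 183 (log2 fold change 1.80 ± 0.32, limma adjusted p = 0.00384), although Adipoq and Cfd, made by fat cells, were highest in Saline 2 or CDDP 3, with Adipoq at 0.360, 8.19 and 0.0800 and 0.320, 2.75 and 6.83. Aqp7, a glycerol channel, was among the 15 largest falls, from 25.5, 10.1 and 23.2 to 0.330, 2.24 and 0.760 (log2 fold change -3.29 ± 0.38, limma adjusted p = 7.80e-04). Among hypoxia-inducible genes 4 of 13 fell and 0 rose (2 fell without Saline 2 and CDDP 3), led by the oxygen sensor Egln3 (61.4, 18.0 and 27.0 to 5.18, 8.75 and 8.58, log2 fold change -1.95), and 1 of 13 without Saline 3. The hypoxia falls were 30.8% of their list, beside 10.4% of all tested genes. Among 17 genes of branched-chain amino acid breakdown 3 rose (17.6%), and among 17 of mitochondrial biogenesis 2 rose (11.8%) and 1 fell (5.88%). The biogenesis shares were near or below the 8.52% and 10.4% of all tested genes. Each count of the branched-chain and biogenesis lists was 0 without Saline 1 or without Saline 3. The coactivator Ppargc1a overlapped between groups, at 15.4, 17.5 and 19.4 and 4.58, 27.9 and 21.2.

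Genes for making proteins rose widely. Of 80 tested cytosolic ribosomal proteins 46 rose and 0 fell (median log2 fold change 0.46), where 8.52% of all genes rose. Their summed TPM was 47573, 55927 and 43591 in the Saline group and 68342, 61612 and 71463 in the CDDP group, without overlap. Rps19 of the small subunit, for example, was at 246, 285 and 249 and 538, 454 and 507 (log2 fold change 0.94 ± 0.15, limma adjusted p = 0.00252). The count was 11 without Saline 1 or without Saline 3, 6 in a fit of the 6 hearts alone, and 59 without Saline 2. It was 36 without Saline 2 and CDDP 3. Many ribosomal proteins have processed copies in the genome between which reads can be divided, and Rpl3, called higher by 1.17 on the log2 scale, is a case in which the copy moved the other way (below). Its call was lost without Saline 1, Saline 3 or CDDP 3 (adjusted p up to 0.0636 by limma).

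Translation factors and ribosome assembly followed. Of 42 translation factors 22 rose and 1 fell (median 0.52), and of 36 genes of ribosome biogenesis 13 rose and 0 fell (median 0.47). Eif1, which keeps start codon choice accurate, rose from 317, 451 and 362 to 767, 829.5 and 940.1 (log2 fold change 1.18 ± 0.15, limma adjusted p = 8.69e-04). The elongation factor Eef2 rose from 693, 858 and 636 to 1080, 1191 and 1283 (log2 fold change 0.71 ± 0.13, limma adjusted p = 0.00436), and nucleolin, Ncl, from 35.5, 43.0 and 29.4 to 68.8, 60.9 and 85.9 (log2 fold change 0.98 ± 0.17, limma adjusted p = 0.00309). The factor that fell was Eif4e, the cap-binding protein (54.9, 50.5 and 59.1 to 26.7, 36.4 and 43.3), whose call was lost without Saline 1, Saline 3 or CDDP 1 (adjusted p up to 0.0784 by limma). Leaving out Saline 3 gave 11 called translation factors and 5 biogenesis genes, and leaving out Saline 2 with CDDP 3 gave 15 and 6. Among 39 spliceosome genes 8 rose and 0 fell, a count that was 1 without Saline 3, 4 without Saline 2 and CDDP 3 and 18 after scaling by the median of ratios.

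Genes for breaking proteins down were also higher. Of 34 constitutive proteasome subunits 17 rose and 0 fell (median 0.40), and 9 were called without Saline 3 or without Saline 2 and CDDP 3. Psmd4, a ubiquitin receptor of the regulatory particle, was at 78.3, 94.4 and 75.5 in the Saline and 193, 186 and 220.0 in the CDDP hearts (log2 fold change 1.26 ± 0.13, limma adjusted p = 4.07e-04), and the ATPase Psmc1 rose from 79.8, 91.0 and 76.7 to 158, 155 and 178 (log2 fold change 0.98 ± 0.12, limma adjusted p = 8.02e-04). In autophagy and mitophagy 9 of 32 genes rose and 1 fell (median 0.29), shares of 28.1% and 3.12% beside 8.52% and 10.4% of all tested genes. Sqstm1, the cargo receptor p62, rose from 166, 261 and 209 to 525, 818 and 752 (log2 fold change 1.72 ± 0.19, limma adjusted p = 6.01e-04). Map1lc3b, the LC3 protein of the autophagosome membrane, rose from 109, 155 and 106 to 356, 337 and 337 (log2 fold change 1.49 ± 0.15, limma adjusted p = 4.07e-04). The lysosomal protease Ctsl (129.9, 245 and 147 to 439, 669 and 1079) and the mitophagy receptor Bnip3 (95.4, 147 and 176 to 316, 789 and 554) rose by 2.02 and 1.93 on the log2 scale.

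Of 23 genes of muscle atrophy and growth signalling 5 rose and 1 fell, and 11 were called higher without CDDP 1. The shares of 21.7% higher and 4.35% lower stand beside 8.52% and 10.4% of all tested genes. Fbxo32, the muscle ubiquitin ligase atrogin-1, rose from 17.7, 16.4 and 15.3 to 33.7, 76.4 and 72.1 and was highest in CDDP 2 and 3 (log2 fold change 1.74 ± 0.29, limma adjusted p = 0.00293). Irs2, an insulin receptor substrate, rose from 5.46, 3.91 and 3.43 to 9.81, 25.5 and 20.9 (log2 fold change 1.83 ± 0.28, limma adjusted p = 0.00189), and Fbxo31 from 17.6, 36.2 and 31.9 to 110.0, 118 and 83.7 (log2 fold change 1.87 ± 0.23, limma adjusted p = 8.11e-04). Trim63, the ligase MuRF1, was high in CDDP 2 and 3 but not in CDDP 1 (133, 104 and 159 and 117, 417 and 236) and was not called. Igf1 was lower in each CDDP heart, at 1.65, 1.14 and 5.40 against 6.11, 11.7 and 6.79. Its call held without CDDP 3 and was lost without any other heart (adjusted p up to 0.0854 by limma).

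Among 22 cytosolic heat shock chaperones 6 rose and 2 fell, with a median of 0.00. The share higher was 27.3%, beside 8.52% of all tested genes, and the share lower, 9.09%, was near their 10.4%. Fkbp4, a co-chaperone of Hsp90, fell from 211, 175 and 172 to 54.1, 79.8 and 77.8 (log2 fold change -1.40 ± 0.18, limma adjusted p = 9.34e-04). The near-identical stress genes Hspa1a and Hspa1b, between which reads may be divided, were called higher, at 1.70, 21.2 and 4.76 and 42.4, 37.2 and 62.3 for Hspa1b. All 6 rises were lost without Saline 1 or without Saline 3. In the unfolded protein response of the endoplasmic reticulum 1 of 23 rose and 3 fell, shares of 4.35% and 13% beside 8.52% and 10.4% of all tested genes. No fall was called (0) without Saline 1, Saline 2 or CDDP 1 or without Saline 2 and CDDP 3, and the rise was lost without Saline 1, Saline 3 or CDDP 3. In this list the sensor chaperone Hspa5 overlapped between groups (220.4, 216 and 158 and 145, 181 and 158).

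**Figure D3:**
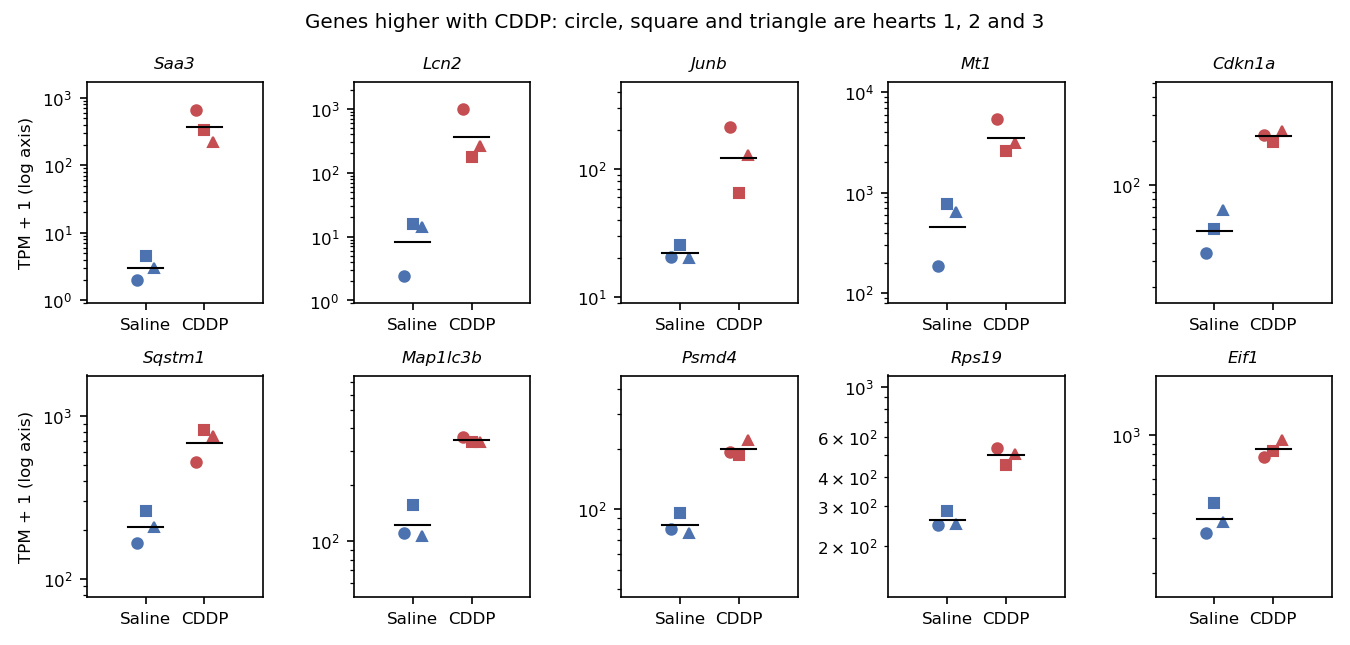
Each panel plots TPM + 1 on a log axis for 1 gene in the 3 Saline (blue) and 3 CDDP (red) hearts; circle, square and triangle are hearts 1, 2 and 3, and the bar is the mean of log2(TPM + 1). All 10 genes are higher in every CDDP heart than in any Saline heart, and CDDP 1 has the highest Saa3, Lcn2, Junb and Mt1.

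Of 30 p53 targets 11 were called higher with CDDP and 2 lower (median log2 fold change 0.49). Cdkn1a, the cell cycle inhibitor p21, was at 32.8, 48.8 and 65.8 in the Saline group and 219.8, 196 and 232 in the CDDP group (log2 fold change 2.17 ± 0.26, limma adjusted p = 8.02e-04). Trp53inp1 rose from 3.62, 5.55 and 3.69 to 24.3, 25.5 and 47.5 (log2 fold change 2.61 ± 0.30, limma adjusted p = 7.15e-04), and Eda2r, a death receptor of the TNF family, from 1.72, 1.22 and 1.25 to 9.27, 4.35 and 6.74 (log2 fold change 1.66 ± 0.27, limma adjusted p = 0.00247). Mdm2, which degrades p53 and is itself a target, overlapped at 20.0, 28.1 and 20.0 and 30.4, 25.0 and 40.1. Ccng1, also a p53 target, went the other way, from 212, 230.4 and 249 to 106, 93.8 and 138 (log2 fold change -1.04 ± 0.16, limma adjusted p = 0.00216), as did Ak1. Without Saline 1, 7 of the rises were called, and 8 without Saline 2 and CDDP 3.

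Genes that repair or bypass platinum lesions rose in 7 of 29 cases with 0 falls, among them Ercc1, Xpa and Ercc5 of nucleotide excision repair. For Ercc1 the TPM was 24.8, 29.0 and 39.1 and 63.8, 63.2 and 42.1 (log2 fold change 0.84 ± 0.21, limma adjusted p = 0.0171). The count was 2 without Saline 1 or without Saline 3 and 3 without Saline 2 and CDDP 3. The call of Ercc1 was lost without Saline 1, CDDP 1 or CDDP 2 (adjusted p up to 0.0756 by limma), that of Xpa without Saline 1, Saline 3, CDDP 2 or CDDP 3 and that of Ercc5 without Saline 1. Carriers of cisplatin and copper gave 0 calls of 14 (median 0.07), with 0.02 for the copper importer Slc31a1. Among 21 apoptosis regulators 3 rose and 1 fell, shares of 14.3% and 4.76% beside 8.52% and 10.4% of all tested genes. The rises were those of the survival genes Mcl1 (65.8, 75.8 and 64.3 to 104, 109 and 132) and Bcl2l1 and of the proapoptotic Pmaip1, and without CDDP 3, without Saline 1 or without Saline 2 and CDDP 3, 1 gene was called higher. Bax was higher in each CDDP heart (36.1, 32.2 and 30.1 against 75.0, 37.0 and 49.4) without passing (log2 fold change 0.64 ± 0.24, limma adjusted p = 0.0808), and Bcl2 overlapped.

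Immediate-early genes, which cells switch on within minutes of a stimulus, were called higher in 16 of 27 cases and lower in 0 (median 1.18). Junb was at 19.6, 24.6 and 19.1 in the Saline and 212, 63.5 and 127 in the CDDP hearts (log2 fold change 2.46 ± 0.35, limma adjusted p = 0.00135); Prdx2 lies on the opposite strand there, and strand use in the counting was not given in the sources used here. Egr1 rose from 21, 9.91 and 3.56 to 59.5, 38.3 and 48.0 (log2 fold change 2.24 ± 0.45, limma adjusted p = 0.00704) and Maff from 5.61, 13.9 and 10.7 to 41.7, 37.9 and 45.8 (log2 fold change 2.03 ± 0.30, limma adjusted p = 0.00182). Fos was at 10.3, 6.73 and 2.16 and 38.8, 12.1 and 23.3, a call lost without Saline 3, CDDP 1 or CDDP 3 (adjusted p up to 0.0677 by limma). Jun, Atf3 and Klf4 overlapped between groups.

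In the integrated stress response, which slows general translation through eIF2α and induces Atf4, 7 of 35 genes rose and 0 fell (median 0.34). Gdf15, a circulating hormone that reduces food intake, rose from 1.17, 0.860 and 0.940 to 5.71, 4.46 and 6.30 (log2 fold change 1.70 ± 0.24, limma adjusted p = 0.00137). Slc3a2 rose from 24.2, 43.4 and 25.6 to 97.5, 79.0 and 132, Ppp1r15a from 20.9, 22.3 and 16.7 to 46.4, 50.0 and 56.3 and Sesn2 from 1.80, 2.40 and 1.60 to 7.36, 4.32 and 6.44. Atf4 itself was at 53.1, 81.2 and 58.4 and 164, 93.5 and 155, a call lost without Saline 1 (adjusted p = 0.0520 by limma). The classical targets Asns, Trib3, Ddit3 and Mthfd2 overlapped between groups. Without Saline 1, 4 of the 7 rises were called.

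Antioxidant and metal-binding genes rose in 11 of 25 cases, with 1 fall (median 0.54). The metallothionein Mt1 was at 186, 771 and 641 in the Saline group and at 5405, 2583 and 3116 in the CDDP group (log2 fold change 2.96 ± 0.44, limma adjusted p = 0.00179), and Mt2 at 24.1, 308 and 174 and 4223, 769 and 1347 (log2 fold change 3.89 ± 0.81, limma adjusted p = 0.00803). The NRF2 targets Nqo1 (26.2, 17.3 and 16.5 to 90.4, 50.6 and 52.6) and Gclc (3.82, 5.08 and 3.69 to 11.3, 8.37 and 11.5) rose by 1.62 and 1.13 on the log2 scale. The gene that fell was Sod2, the mitochondrial superoxide dismutase, by 0.46 (adjusted p = 0.101 by limma without Saline 1), and it was not called after scaling by the median of ratios. Metallothioneins also answer to glucocorticoids, and they are members of the list of glucocorticoid-induced genes, of which 9 of 18 rose and 0 fell (median 1.14).

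Fkbp5, a glucocorticoid-induced chaperone, was at 2.76, 39.7 and 34.3 and 72.1, 107 and 137 (log2 fold change 2.55 ± 0.70, limma adjusted p = 0.0279); Saline 1 was far below the other Saline hearts, and the call was lost without CDDP 2 or CDDP 3 (adjusted p up to 0.0779 by limma). With Saline 1 or CDDP 3 left out, 5 of the 9 rises of the list were called. Tsc22d3 and Zbtb16, both strongly steroid-induced, overlapped between groups at 71.5, 204 and 84.9 and 132, 173 and 327 for Tsc22d3. Among 20 clock genes, which follow the time of day at which hearts are taken, 3 rose and 0 fell, and 6 were called higher without Saline 2. The 3 rises are 15.0% of the list, beside 8.52% of all tested genes. Arntl, the core activator, ran from 3.09 to 13 in the Saline group and from 1.87 to 5.95 in the CDDP group, and Dbp, its output, stood at 81.1 in Saline 2 and at 10.2 to 18.6 in the other hearts.

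The acute-phase response, by which tissues answer interleukin 6 and related cytokines, held the largest rise among all tested genes, that of Saa3. Of its 21 tested genes 13 rose and 0 fell, with a median log2 fold change of 1.45. Saa3, a serum amyloid A made outside the liver, was at 1.01, 3.46 and 1.98 in the Saline group and at 651, 334 and 220.3 in the CDDP group (log2 fold change 6.93 ± 0.90, limma adjusted p = 9.96e-04). Lcn2, the iron-siderophore binder lipocalin 2, rose from 1.38, 15.0 and 12.9 to 986, 172 and 261 (log2 fold change 5.45 ± 0.85, limma adjusted p = 0.00215) and the protease inhibitor Serpina3n from 2.69, 67.2 and 21.4 to 1002, 139 and 536 (log2 fold change 4.57 ± 1.00, limma adjusted p = 0.0103). Socs3, the feedback inhibitor of this signal, rose from 3.15, 4.24 and 3.74 to 70.8, 10.6 and 24.3 (log2 fold change 2.56 ± 0.52, limma adjusted p = 0.00736). CDDP 1 was highest for each of these 4 genes. The list had 7 calls without CDDP 3, without Saline 1 or without Saline 3. Albumin, the main liver product, was at most 0.120 in any heart. Of 4 tested liver genes 1 was called higher, Ttr, at 0.200, 0.650 and 0.130 and 2.60, 1.58 and 4.83, a call lost without Saline 1, Saline 3 or CDDP 3 (adjusted p up to 0.0570 by limma).

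Genes of NF-kB and TNF signalling gave 6 rises of 25 and 0 falls (median 0.77), of which 2 were called without CDDP 1 or without Saline 3. The neutrophil attractant Cxcl1 was at 4.15, 4.19 and 3.25 and 55.2, 13.5 and 16.6 (log2 fold change 2.33 ± 0.47, limma adjusted p = 0.00733), and the inhibitor Nfkbia rose from 46.8, 80.7 and 35.6 to 134, 105 and 131 (log2 fold change 1.24 ± 0.27, limma adjusted p = 0.00955). Tnf was at most 0.750 in any heart and Il6 stood at 5.05 in CDDP 1 and 0.120 to 0.380 elsewhere; neither was tested with limma, and 3 hearts against 3 cannot give an exact permutation p below 0.10, the value both have. CDDP 1 also stood apart in neutrophil genes. S100a8 and S100a9, abundant granulocyte proteins, reached 316 and 547 there and at most 14.4 and 18.6 in the other hearts, and 0 of 7 tested neutrophil genes were called. The 14 genes of that list summed to 1187 in CDDP 1, 48.6 in CDDP 2 and 30.9 in CDDP 3, against 9.90 to 33.8 in the Saline hearts, and Elane was listed at 0 throughout. Their part in the high acute-phase and chemokine values of CDDP 1 was not tested.

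**Figure D4:**
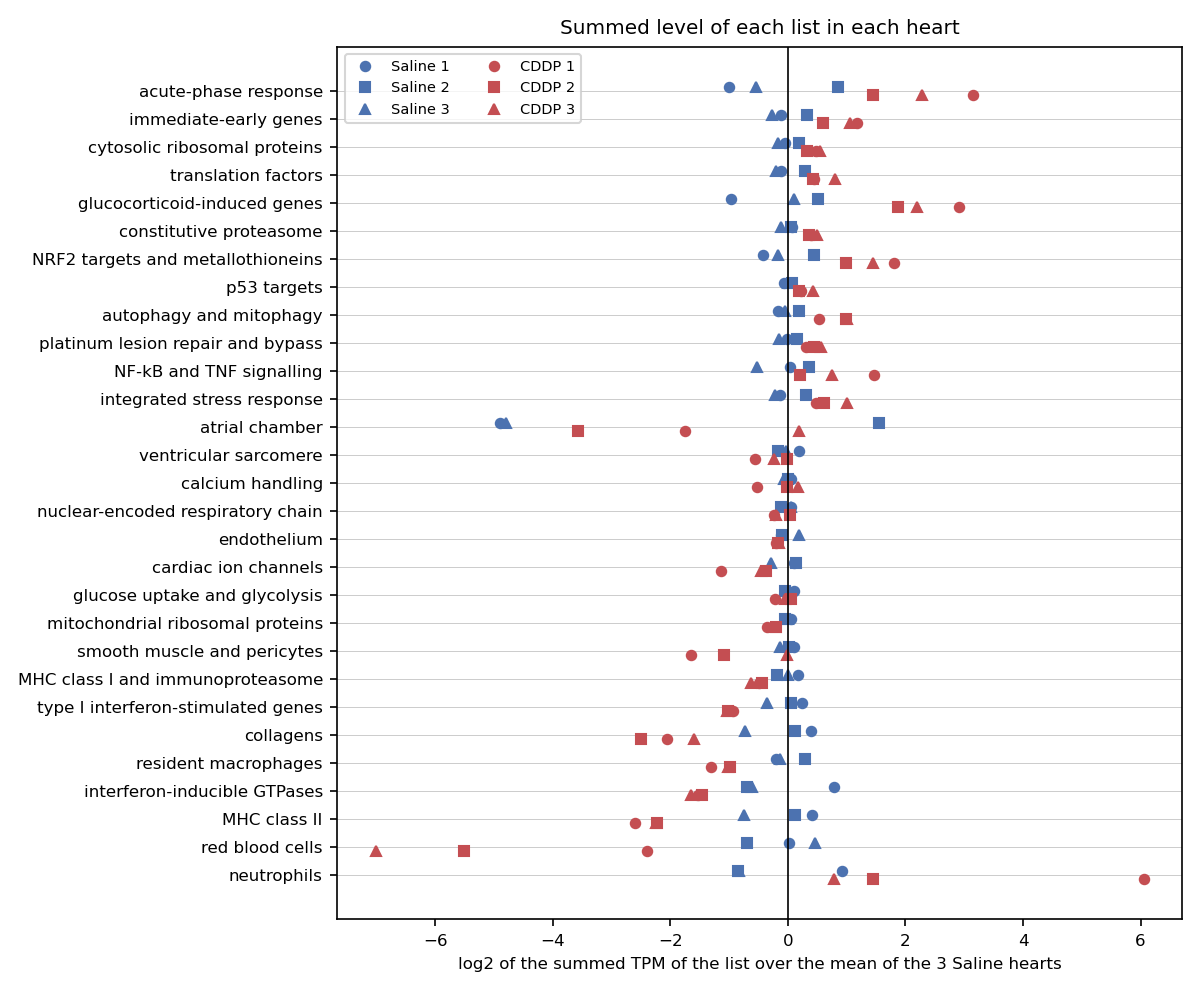
Each row plots, for 1 gene list, the log2 of its summed TPM in each heart relative to the mean of the Saline hearts; blue marks Saline, red CDDP, and circle, square and triangle are hearts 1, 2 and 3. Red blood cell, collagen and MHC class II sums lie below those of all Saline hearts, while the atrial sum follows Saline 2 and CDDP 3 and the neutrophil sum stands out in CDDP 1.

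Interferon-stimulated genes fell. Of 33 genes of the type I list 22 fell and 0 rose (median log2 fold change -1.04), where 10.4% of all tested genes fell. Their summed TPM was 2270, 2007 and 1513 in the Saline group and 1010, 949.6 and 943 in the CDDP group. Irf7, the factor that amplifies the interferon response, was at 78.8, 47.0 and 58.0 in the Saline and 14.2, 22.6 and 11.7 in the CDDP hearts (log2 fold change -1.88 ± 0.28, limma adjusted p = 0.00174). Bst2, which tethers budding virus particles, fell from 188, 118 and 98.1 to 24.8, 39.5 and 35.9 (log2 fold change -1.95 ± 0.26, limma adjusted p = 0.00106), and the ubiquitin-like Isg15 from 58.0, 32.0 and 30.3 to 14.2, 16.6 and 12 (log2 fold change -1.37 ± 0.30, limma adjusted p = 0.00960). Ifit3, which binds viral RNA complexes, fell from 42.9, 42.1 and 30.5 to 4.91, 19.4 and 11 (log2 fold change -1.79 ± 0.40, limma adjusted p = 0.0113), a call lost without Saline 2 and CDDP 3. Ifitm3 did not follow, at 379, 357 and 242 and 526, 280.3 and 358. With each heart left out in turn, 17 to 21 of the 33 were called, and 17 without Saline 2 and CDDP 3.

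The promoters of the type I list were read for the interferon-stimulated response element, spelled here as TTTC, any 2 bases and TTTC, on either strand. Of the 14 called members with a promoter in the RefSeq table of GRCm38.p6, 7 held it in the 250 bases before the start, as did 3.46% of all 27025 genes there. The genes were listed because interferon induces them, and members that were not called were not counted. The share therefore describes the list and does not bear on the fall with CDDP. A match describes the letters and does not show that a factor binds. The 250 bases before the start are given 5′ to 3′ on the gene's strand for the 3 named genes with matches, in lower case with the matches in capitals. They lie at chr4:156200819-156201068 on the minus strand for Isg15, chr19:34583279-34583528 on the plus strand for Ifit3 and chr8:71537473-71537722 on the minus strand for Bst2. Isg15 has 3 overlapping matches ending 68, 62 and 56 bases before the start, Ifit3 has 2 and Bst2 has 2 that overlap.
Isg15: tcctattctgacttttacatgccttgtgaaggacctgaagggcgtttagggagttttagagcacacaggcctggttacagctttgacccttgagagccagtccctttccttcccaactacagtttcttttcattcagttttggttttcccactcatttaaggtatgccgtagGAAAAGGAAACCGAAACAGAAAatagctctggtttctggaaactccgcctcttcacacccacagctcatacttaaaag
Ifit3: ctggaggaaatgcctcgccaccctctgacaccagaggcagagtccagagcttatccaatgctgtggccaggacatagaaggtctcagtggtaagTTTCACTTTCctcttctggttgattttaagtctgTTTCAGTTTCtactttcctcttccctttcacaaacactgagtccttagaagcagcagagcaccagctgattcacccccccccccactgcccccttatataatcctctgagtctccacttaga
Bst2: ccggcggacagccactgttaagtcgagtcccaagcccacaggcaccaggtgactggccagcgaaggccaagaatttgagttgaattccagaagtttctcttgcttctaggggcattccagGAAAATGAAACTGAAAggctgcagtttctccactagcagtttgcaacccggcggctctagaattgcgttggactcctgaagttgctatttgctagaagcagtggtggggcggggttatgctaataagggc

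The promoter of Mt1, chr8:94178839-94179088 on the plus strand, is shown for contrast because Mt1 rose and holds a glucocorticoid response element, spelled GNACA, 3 bases and TGTNC. Among 8 called glucocorticoid-induced genes with a promoter listed there, 2 held it, Mt1 and Sgk1, against 0.44% of all genes. The call of Sgk1 was lost without any heart other than CDDP 1 (adjusted p up to 0.121 by limma). The match, in capitals, ends 81 bases before the start.
Mt1: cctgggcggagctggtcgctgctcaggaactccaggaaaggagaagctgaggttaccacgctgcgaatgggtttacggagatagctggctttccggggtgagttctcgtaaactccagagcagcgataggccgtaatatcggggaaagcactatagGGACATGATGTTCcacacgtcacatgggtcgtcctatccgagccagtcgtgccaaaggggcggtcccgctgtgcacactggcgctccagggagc
Of the other elements searched, the E-box and D-box were in 1 of 2 called clock genes (Per1), against 6.86% and 3.63% of all genes. The cAMP response element TGACGTCA stood in 2 of 12 called immediate-early genes (Btg2 and Maff) and in 1.77% of all genes. The AP-1 site TGANTCA was in 1 of these 12 and in 7.82% of all genes. Among 11 called acute-phase genes the NF-kB site was in 1 (1.65% of all genes) and the C/EBP site in 0. The C/EBP-ATF composite site was in 0 of 6 called integrated stress response genes. The heat shock element was in 0 of 4 risen and 0 of 2 fallen chaperone genes. The endoplasmic reticulum stress element was in 1 of 1 risen and 2 of 3 fallen unfolded protein response genes (0.13% of all genes). All these counts are of called genes with a promoter listed, and they describe the lists rather than the effect of CDDP.

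The p47 and guanylate-binding GTPases, which interferon-γ induces strongly, fell in 11 of 16 cases with 0 rises (median -1.12). Igtp was at 149, 33.9 and 41.3 in the Saline group and 15.2, 10.5 and 9.15 in the CDDP group (log2 fold change -2.29 ± 0.46, limma adjusted p = 0.00714), and Saline 1 was far above the other Saline hearts. With Saline 1 left out the count of called GTPases was 4 and the fall of Igtp was still called. Of 11 tested components of cGAS-STING signalling 1 was called higher and 2 lower (median -0.12). These shares of 9.09% and 18.2% stand beside 8.52% and 10.4% of all tested genes. Summed over the list of 14 genes, Irf7 among them, TPM did not overlap between groups. It was 199, 159 and 144 in the Saline and 128, 118 and 119 in the CDDP hearts. This separation rested on Irf7, whose values are given above, and the sums without Irf7 overlapped between groups. Sting1, which encodes STING, was at 12.3, 6.59 and 6.50 in the Saline and 22.1, 5.62 and 8.81 in the CDDP hearts. The lower genes, Irf7 and Zbp1, are themselves interferon-induced, and the call of Zbp1 was lost without Saline 1, Saline 2, CDDP 2 or CDDP 3 (adjusted p up to 0.163 by limma). The higher gene was the kinase Tbk1, whose call was lost without Saline 1, Saline 3, CDDP 1 or CDDP 3 (adjusted p up to 0.119 by limma), and Ifnb1 was listed at 0 in all 6 hearts.

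Antigen presentation fell. Of 7 tested genes of MHC class II, which macrophages, dendritic cells and B cells use to show peptides to T cells, 6 fell (median -2.60), with each heart left out as well. H2-Aa was at 129, 88.2 and 46.3 in the Saline group and 5.46, 11.9 and 10.6 in the CDDP group (log2 fold change -3.05 ± 0.38, limma adjusted p = 8.63e-04), and the invariant chain Cd74 at 303, 244 and 139.7 and 24.6, 43.1 and 33.0 (log2 fold change -2.70 ± 0.30, limma adjusted p = 6.79e-04). Of 16 MHC class I and immunoproteasome genes 10 fell and 0 rose (median -1.03). B2m, the light chain of class I, fell from 2097, 1553 and 1504 to 823, 719 and 739.6 (log2 fold change -1.16 ± 0.18, limma adjusted p = 0.00216), and H2-K1 from 1105, 837 and 714 to 521, 397 and 438 (log2 fold change -0.95 ± 0.19, limma adjusted p = 0.00748). Without Saline 1, 5 of the 10 were called. H2-D1, chosen after its values were seen, was at 1095, 1077 and 1891 in the Saline and 1487, 1951 and 1447 in the CDDP hearts, so that Saline 3 sat with the CDDP hearts. B2m and Cd74 lie on other chromosomes. H2-K1 starts at 33996017 on chromosome 17 of GRCm38, next to the genes whose copies differed between hearts (below). H2-Aa and the other H2 genes belong to the same cluster as H2-K1. Any part of that stretch in the values of the H2 genes was not tested.

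Markers of resident macrophages fell in 13 of 19 cases with 0 rises (median -1.43). Mrc1, the mannose receptor, was at 17.1, 20.8 and 14.9 and 3.35, 5.37 and 5.37 (log2 fold change -1.72 ± 0.26, limma adjusted p = 0.00189), and Folr2 fell from 46.8, 52.9 and 46.5 to 3.11, 14.6 and 11.3 (log2 fold change -2.43 ± 0.41, limma adjusted p = 0.00321). Cd163, another marker of these cells, overlapped at 9.94, 33.4 and 25.6 and 7.41, 19.4 and 14.8. Without Saline 2 and CDDP 3, 8 were called. Of 18 lymphocyte genes 11 did not pass the filter, and 4 of the 7 tested fell. The largest fall was that of Ighm, the heavy chain of IgM (23.6, 12.7 and 13 to 0.820, 0.950 and 0.890, log2 fold change -3.15). Such a gene can pass the filter through the Saline hearts alone. The highest log2 fold change among the 7 was 1.74, uncalled. The sum of the list overlapped between groups, at 76.5, 25.3 and 33.7 and 15.5, 30.5 and 47.6. Cd79a and Cd3e were below 1 in every heart.

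Collagens fell, as did some fibroblast markers. Of 28 tested collagen genes 19 fell and 0 rose (median log2 fold change -1.13), and their sum was 1168, 969.8 and 540.5 in the Saline group and 214, 157 and 294 in the CDDP group. Col3a1, a fibrillar collagen, was at 242, 228 and 68.4 and 9.87, 5.91 and 16.3 (log2 fold change -3.85 ± 0.50, limma adjusted p = 9.67e-04), Col15a1 of the basement membrane zone at 99.8, 40.1 and 20.3 and 3.22, 1.85 and 4.34 (log2 fold change -3.47 ± 0.44, limma adjusted p = 9.34e-04), and Col1a1 at 44.8, 82.5 and 21.8 and 7.05, 4.88 and 12.7 (log2 fold change -2.36 ± 0.50, limma adjusted p = 0.00879). Saline 3 was the lowest Saline heart for all 3 and still exceeded every CDDP heart. Without Saline 1, 12 of the collagen genes were called. Of 13 fibroblast markers 4 fell and 0 rose, with a median of -0.27. The share lower, 30.8%, was above the 10.4% of all tested genes. The receptor Pdgfra overlapped between groups (13.8, 23.2 and 15.6 and 13.7, 13.1 and 21.6), as did Dcn.

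Among 35 other matrix genes 6 fell and 2 rose, shares of 17.1% and 5.71% beside 10.4% and 8.52% of all tested genes. The number called higher was 8 without Saline 2, 5 without Saline 2 and CDDP 3 and 0 without Saline 1 or CDDP 3. Sparc, a collagen-binding protein, fell from 663, 564 and 414 to 151, 132 and 199 (log2 fold change -1.75 ± 0.26, limma adjusted p = 0.00159) and elastin, Eln, from 55.6, 62.3 and 29.8 to 12, 10.4 and 21.6 (log2 fold change -1.68 ± 0.36, limma adjusted p = 0.00928). Timp1, an inhibitor of matrix proteases, was called higher (5.29, 24.3 and 5.94 to 70.7, 28.4 and 51.9), but Saline 2 came close to CDDP 2 and the call was lost without any of 4 hearts (adjusted p up to 0.149 by limma without Saline 1). Proliferation genes fell in 6 of 21 tested cases and rose in 1, while 12 of the 33 listed did not pass the filter. Birc5, which acts in cell division, was at 2.82, 1.13 and 1.91 and 0.180, 0.260 and 0.140 (log2 fold change -1.27 ± 0.23, limma adjusted p = 0.00438). Without Saline 1, 2 of the 6 were called.

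Endothelial genes gave 6 falls of 24 and 0 rises, a share of 25.0% lower beside 10.4% of all tested genes. The apelin receptor Aplnr was at 58.6, 7.30 and 20.4 in the Saline group and 0.370, 0.520 and 1.24 in the CDDP group (log2 fold change -3.72 ± 0.53, limma adjusted p = 0.00145), and its ligand Apln fell by 2.10 on the log2 scale. Pecam1, present on all endothelium, was at 136, 191 and 141 and 138, 140.3 and 204 (log2 fold change 0.03). Kdr, the main VEGF receptor, was called lower (90.4, 30.7 and 50.9 to 13, 26.1 and 21.2), a call lost without Saline 1 or CDDP 1 (adjusted p up to 0.0707 by limma). Saline 1 was the highest heart for Aplnr, Apln and Kdr. The endothelial list had 2 calls without it. In smooth muscle and pericytes 5 of 12 fell, among them the pericyte gene Rgs5 (223, 142 and 235 to 66.9, 108 and 81.0, log2 fold change -1.21 ± 0.24, limma adjusted p = 0.00602), while Myh11 of smooth muscle overlapped. The 5 falls were 41.7% of this list, beside 10.4% of all tested genes. Without Saline 1 or without CDDP 1, 1 of the 12 was called.

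Of 14 red blood cell genes in the files, 8 passed the filter on low values and were all called lower (median log2 fold change -4.23). Over all tested genes 10.4% were called lower. A gene could pass that filter through the Saline hearts alone, as the values of Alas2 below allow, so the count is not independent of it. The β-globin Hbb-bs was at 2788, 1949 and 4181 in the Saline group and at 574, 58.2 and 14.9 in the CDDP group (log2 fold change -5.12 ± 1.09, limma adjusted p = 0.00909). The α-globin genes Hba-a1 and Hba-a2, which share most of their sequence, had log2 fold changes of -4.65 and -4.87. Globins took 0.680%, 0.413% and 0.929% of TPM in the Saline group and 0.127%, 0.0141% and 0.00419% in the CDDP group, and rescaling without them gave 2624 called genes. Alas2, the erythroid enzyme of heme synthesis found in young red cells, fell from 18.3, 12.8 and 27.8 to 0.790, 0.560 and 0 (log2 fold change -3.81 ± 0.45, limma adjusted p = 8.02e-04).

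Of 22 iron-handling genes 4 rose and 2 fell, shares of 18.2% and 9.09% beside 8.52% and 10.4% of all tested genes. Tfrc, the transferrin receptor that imports iron, fell from 58.7, 11 and 17.9 to 2.68, 1.28 and 2.89 (log2 fold change -2.90 ± 0.52, limma adjusted p = 0.00410), and Fth1, the ferritin chain that stores it, rose from 3013, 3242 and 3181 to 5494, 5547 and 4769 (log2 fold change 0.74 ± 0.13, limma adjusted p = 0.00309). Hmox1, which breaks down heme, rose from 10.5, 20.3 and 14.4 to 101, 40.1 and 35.4 (log2 fold change 1.78 ± 0.37, limma adjusted p = 0.00849), while the exporter Slc40a1 overlapped. Hamp, the hormone hepcidin, was highest in Saline 2 and CDDP 3, at 0.350, 256 and 0.280 and 93.9, 64.5 and 401.

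Several of the largest changes belonged to processed copies of other genes. Of 41 copies with a TPM of at least 10 in a heart, 8 changed their share of the combined TPM of copy and parent by at least 30 percentage points between hearts. Rps2-ps10 held 0.339%, 0.45% and 52.4% of that sum in Saline 1, 2 and 3 and 53.3%, 97.5% and 52.8% in CDDP 1, 2 and 3. Rps18-ps6 held 0.243%, 0.151% and 46.5%, then 45.2%, 95.4% and 44.5%. The parent of 7 of these 8 lies on chromosome 17, and in these 7 shares Saline 1 and 2 were at or near 0, Saline 3, CDDP 1 and CDDP 3 in between and CDDP 2 highest. Their parents Rps2, Rps18, Rnps1, Glo1 and Atp6v0c all lie between 24163866 and 33956001 on chromosome 17 of GRCm38. Rps2 itself was at 1338, 1236 and 643 in the Saline and 779, 39.4 and 668 in the CDDP hearts. Saline 3 thus lay among the CDDP hearts rather than with Saline 1 and 2, and what sets these shares was not tested. Of the 41 copies, 9 have their parent on chromosome 17, and the other two did not differ between hearts by as much. Rpl10a-ps1, whose parent lies inside the same stretch at 28328471 to 28331033, differed by 3.4 percentage points between its lowest and highest share. The call of Rps2-ps10 (log2 fold change 5.08) was lost without Saline 1, Saline 2, CDDP 1 or CDDP 2 (adjusted p up to 0.0988 by limma), and that of Rps18-ps6 without Saline 1.

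Rpl3-ps1 followed the groups instead, at 104, 173 and 89.2 in the Saline hearts and listed at 0 in each CDDP heart (log2 fold change -6.88 ± 0.21, limma adjusted p = 1.56e-08). With its parent Rpl3 it summed to 268, 438 and 212 in the Saline group and 424, 297 and 485 in the CDDP group, which overlap, whereas Rpl3 alone did not. Ndufs5-ps was at 201, 157 and 199 in the Saline and 148, 0 and 0 in the CDDP group, a call lost without Saline 1, Saline 3, CDDP 2 or CDDP 3 (adjusted p up to 0.0929 by limma). Assembled loci without a gene name made up 61 of the 1177 genes called higher, 18 of the 1433 lower and 277 of all 13815 tested. The lincRNA 1200007C13Rik, at most 0.140 in any Saline heart, was at 91.4, 6.13 and 13.6 in the CDDP hearts (log2 fold change 4.31 ± 0.69, limma adjusted p = 0.00235).

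**Figure D5:**
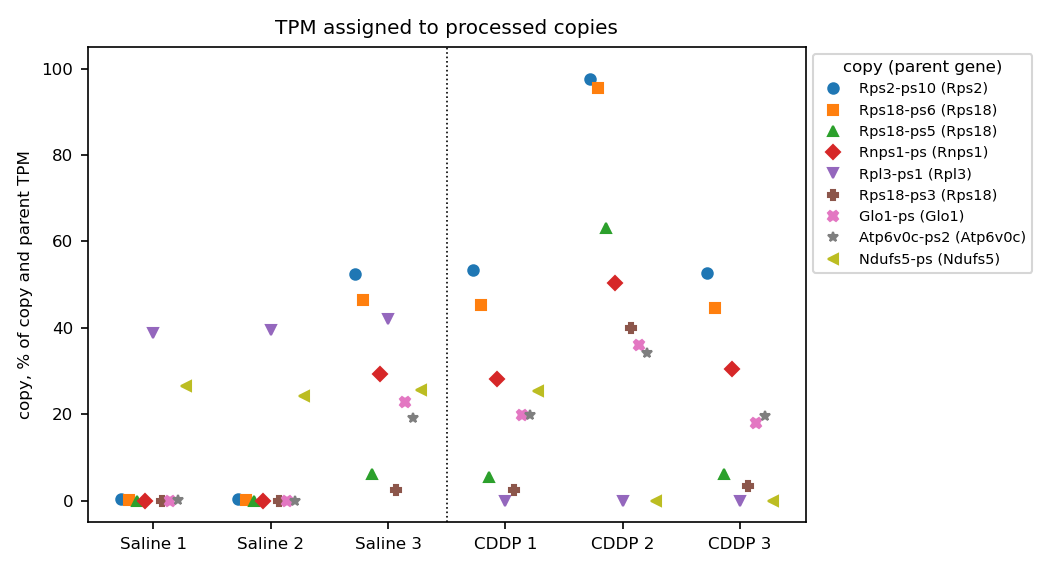
For 9 processed copies (parent in brackets) the share of the summed TPM of copy and parent that was assigned to the copy is plotted in % for each heart. The 7 copies with a parent on chromosome 17 are at or near 0 in Saline 1 and 2 and highest in CDDP 2, while Rpl3-ps1 is present in the Saline group and listed at 0 in the CDDP group.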

How the data were processed

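RNA was sequenced from cardiac tissues of 12 mice, 3 per group, of which the 3 Saline and 3 CDDP hearts were compared. The authors deposited TPM for each heart. Per the submitters' processing notes, fastp, HISAT and RSEM were used with the build GRCm38.p5; versions, the role of each tool and the use of strand are not given in the sources used here. The sources do not say that the hearts were processed in batches. The 4 deposited columns of group means were not used, and no per-sample column was left unmapped (0).

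TPM was transformed to log2(TPM + 1). Genes with TPM of at least 1 in at least 3 of 12 hearts were fitted with limma 3.58.1 in R 4.3.3 as 4 groups, with a trended prior and 8 residual degrees of freedom, and the contrast CDDP minus Saline was adjusted by Benjamini-Hochberg over all 13815 genes (threshold 0.05). The script was tested on simulated data. The median standard error of the log2 fold change was 0.216. Positions are from GENCODE M21, which matched 55141 of 55885 identifiers, and promoters from RefSeq (GRCm38.p6), which matched 281 of 384 named genes. Reads from near-identical or overlapping genes may be divided between them.

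Named genes were the 15 largest rises and falls among called genes without overlap between groups, in each of 62 lists the genes fixed for it and up to 3 called genes per direction, and the 10 most abundant genes. Promoters were shown for up to 4 called genes holding their list's motif. The lists and this rule were chosen with earlier results of these data known. Alternatives changed the pseudocount, filter, normalization, samples, prior, weights and blocking. The fit without Saline 2 and CDDP 3 was added after seeing the data.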

Additional observations from a re-analysis of the deposited data

How the results depend on the processing

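The number of called genes, 2610 (1177 higher and 1433 lower), moved most with the hearts used. Fitting the 6 hearts alone, with fewer samples behind the spread, gave 822 genes, 326 higher and 496 lower. Leaving out 1 heart in turn gave 1241 to 2548 genes in all, 533 to 1418 higher and 708 to 1355 lower; 1241, 533 and 708 are without Saline 1, and without Saline 3 there were 1736 genes, 575 of them higher, and without CDDP 3 668 higher. A threshold of 1 on the absolute log2 fold change left 1106 genes, 446 higher and 660 lower. Scaling by the median of ratios gave 1910 genes higher and 1904 lower and quantile normalization 1914 and 1990, so that the number higher moved by more than 1.5 times; the cause was not tested. A pseudocount of 0.1, other filters, a fit without trend, sample weights and TPM without hemoglobin or mitochondrially encoded genes gave 2064 to 3168 genes. Without Saline 2 and CDDP 3, an alternative chosen after seeing the data, there were 1961. Of the 229 named genes that were called, 100 were called under every alternative and 138 without each heart in turn, and 0 named results changed direction. With TPM the depth is unknown, so how far it limits low values could not be stated.

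The labels number the hearts 1 to 3 in each group, but the deviations of same-numbered hearts from their group means correlated at 0.09, -0.29 and -0.33, so the numbers were not taken as pairs. With the replicate number as a block 2175 genes were called, 954 higher and 1221 lower.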

Other observations

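The 10 most abundant genes included mitochondrial sequences on chromosome 1, such as Gm28661 with a TPM of 37722 to 54973 over the 6 hearts, and mt-Atp8 at 64542 to 87458, while mt-Atp6 was listed at 0. None of these 10 was called higher or lower with CDDP.

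Of the assembled loci, MSTRG.16948, annotated as resembling an endogenous retroviral gene, was at 1.44, 27.3 and 3.79 in the Saline group and 164, 60.3 and 136 in the CDDP group (log2 fold change 4.01 ± 0.80, the standard error, with a limma adjusted p = 0.00676). MSTRG.5726, annotated in the same way, was at 10.0, 46.2 and 8.42 and at 315, 66.6 and 300.2 (log2 fold change 3.45 ± 0.71, the standard error, with a limma adjusted p = 0.00773). Saline 2 was the highest Saline heart and CDDP 2 the lowest CDDP heart for both.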
